A study of Mus musculus with 4 samples.

Results

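The 4 Hox gene clusters held 9 of the 82899 open-chromatin regions found in the mouse dentate gyrus. Of these 9, 3 (33.3%) were called in every library, close to the 32.1% of all regions. They were 1 each in HoxA, HoxB and HoxD, and none in HoxC. Members were found by position in the mouse build mm9. Every summit in the HoxA window (chromosome 6, 52090000 to 52230000), the HoxB window (chromosome 11, 96040000 to 96240000), the HoxC window (chromosome 15, 102740000 to 102880000) and the HoxD window (chromosome 2, 74490000 to 74620000) was taken, and neighbouring summits no more than 250 bp apart were merged into a region. The windows span 610 kb and held 19 of 190846 summits. The 500 kb on each side of every window, 4000 kb in all, served as flanks and held 353 summits in 137 regions.

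FAIRE-seq, which sequences the nucleosome-poor DNA left in the aqueous phase after phenol and chloroform extraction of fixed, sonicated chromatin, was run on dentate gyri of C57BL6 mice about 9 weeks old. There were 2 libraries titled WT and 2 titled Mbd1 KO, the latter named for the loss of Mbd1, a protein that binds methylated CpG sites. The sources used here give neither the kind of Mbd1 allele nor the sex nor any pooling of animals. They also do not tell whether replicate libraries stem from different mice, so p-values measure only the spread between these libraries, which may be technical. The genotype field contradicts the title for WT 1 and Mbd1 KO 2. Groups follow the titles, each comparison of groups is also given with the field, and the labels are free of conflict for WT 2 and Mbd1 KO 1 alone. The lists of WT 1, WT 2, Mbd1 KO 1 and Mbd1 KO 2 held 38142, 46651, 56382 and 49671 summits, and read depth is unknown. Neither the Mbd1 gene nor markers of the tissue were examined, because no mm9 gene annotation was used.

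Hox genes encode homeodomain transcription factors that give cells their position along the head-to-tail axis of the embryo. In mammals they lie in 4 clusters, ordered along the chromosome by the body level at which they act, and Polycomb proteins are known to keep them silent where they are not used. The forebrain, which includes the hippocampus, develops ahead of the domains in which Hox genes are active. In the GRCm38.p6 gene table all 39 Hox genes lay on the 4 chromosomes of the windows. HoxA has 11 genes and ends with Hoxa13 at high coordinates, HoxB has 10 and begins with Hoxb13, HoxC has 9 and begins with Hoxc13, and HoxD has 9 and begins with Hoxd13. The nearest protein-coding neighbours in that table are Skap2 and Evx1 for HoxA, Ttll6 and Skap1 for HoxB, Calcoco1 and Smug1 for HoxC, and Evx2 and Mtx2 for HoxD. No gene start was placed on a summit, since table and summits use different builds.

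Each library had fewer summits in a window than that cluster has Hox genes, which is nothing particular to the clusters. Genome windows of 130 and 140 kb held a median of 4 regions with all libraries joined, and those of 200 kb held 6. In the Hox windows there were at most 2 summits for the 11 HoxA genes, 1 for the 10 HoxB genes, 1 for the 9 HoxC genes and 2 for the 9 HoxD genes. The starts of these genes are of interest here because Mbd1 reads methylated CpG. RefSeq promoters of GRCm38.p6, covering 250 bases before to 50 after a gene's start, were at hand for 22 of the 39 genes (24 promoters). They held a median of 14.5 CG dinucleotides (range 4 to 45), against a median of 7 over all 32851 promoters of the table. Of the 24, 20 (83.3%) lay above that median, against 48.7% of all promoters, and a CG was present in 100% of them and in 94.6% of all. CG reads the same on both strands and was searched as those letters alone. The promoter with the most CG in each cluster follows, chosen for that count and given 5′ to 3′ on the gene's strand and with each CG in capitals. They are Hoxa13 (chr6:52260831-52261130, minus strand, 45 CG), Hoxb4 (chr11:96318017-96318316, plus strand, 14 CG), Hoxc4 (chr15:103034145-103034444, plus strand, 9 CG) and Hoxd13 (chr2:74667975-74668274, plus strand, 37 CG), all in GRCm38.p6.
Hoxa13: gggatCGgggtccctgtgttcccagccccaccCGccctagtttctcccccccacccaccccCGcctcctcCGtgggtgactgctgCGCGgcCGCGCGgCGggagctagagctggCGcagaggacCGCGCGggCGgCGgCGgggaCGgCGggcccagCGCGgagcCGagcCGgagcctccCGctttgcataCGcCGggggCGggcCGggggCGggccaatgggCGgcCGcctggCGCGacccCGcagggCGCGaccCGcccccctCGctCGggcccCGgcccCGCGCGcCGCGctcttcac
Hoxb4: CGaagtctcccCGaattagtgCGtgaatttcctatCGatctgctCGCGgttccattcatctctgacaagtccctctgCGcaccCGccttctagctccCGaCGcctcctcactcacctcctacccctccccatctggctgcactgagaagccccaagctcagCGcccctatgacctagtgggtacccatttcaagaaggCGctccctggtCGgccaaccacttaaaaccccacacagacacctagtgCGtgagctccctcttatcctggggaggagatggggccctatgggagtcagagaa
Hoxc4: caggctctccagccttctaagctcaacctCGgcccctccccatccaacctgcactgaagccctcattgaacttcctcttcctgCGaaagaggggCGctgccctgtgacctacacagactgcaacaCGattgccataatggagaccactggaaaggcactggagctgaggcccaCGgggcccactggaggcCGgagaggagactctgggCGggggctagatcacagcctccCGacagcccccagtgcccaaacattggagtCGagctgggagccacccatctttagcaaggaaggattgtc
Hoxd13: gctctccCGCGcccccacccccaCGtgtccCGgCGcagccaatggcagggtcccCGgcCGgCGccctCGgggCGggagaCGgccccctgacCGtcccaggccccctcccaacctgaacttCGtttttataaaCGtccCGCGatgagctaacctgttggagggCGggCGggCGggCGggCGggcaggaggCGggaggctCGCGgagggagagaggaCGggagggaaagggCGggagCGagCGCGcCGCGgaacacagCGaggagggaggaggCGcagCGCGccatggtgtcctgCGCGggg

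As many CG as Hoxa13 were present in 1.93% of all promoters of the table, and as many as Hoxd13 in 5.58%. The counts of Hoxb4 and Hoxc4 were reached by 36.3% and 45.8%. Hoxa13 and Hoxd13 act in the hindmost body, limbs and genital tract. Each promoter was the highest of 10 in HoxA, 3 in HoxB, 1 in HoxC and 10 in HoxD. The 4 are thus not a like comparison of clusters or genes. The lowest count was 4 in HoxA and 4 in HoxD. Whether any of these 4 sequences carried a summit was not tested. Promoters of HoxB and HoxC are thinly covered, with entries for 3 of 10 and 1 of 9 genes.

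Called regions were sparser inside the windows than beside them in every library. WT 1 had 6 regions in the windows and 76 in the flanks, WT 2 had 4 and 80, Mbd1 KO 1 had 4 and 102, and Mbd1 KO 2 had 5 and 95. Per 100 kb the windows held 0.984, 0.656, 0.656 and 0.820 regions in these libraries, and the flanks 1.90, 2.00, 2.55 and 2.38. The log2 ratio of window to flank density was −0.95, −1.61, −1.96 and −1.53, with a mean of −1.51 ± 0.42 (SD, n = 4), which is a density of 0.350 times that of the flanks. All 4 libraries thus lay on the same side (exact two-sided sign-flip permutation p = 0.13, the smallest 4 libraries allow, adjusted p = 0.25 over 2 pooled comparisons). Without HoxC and its flanks, left out after the data were seen, the mean log2 ratio was −0.86, or 0.552 times the flanks, so the size rests in large part on that cluster.

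**Figure D1:**
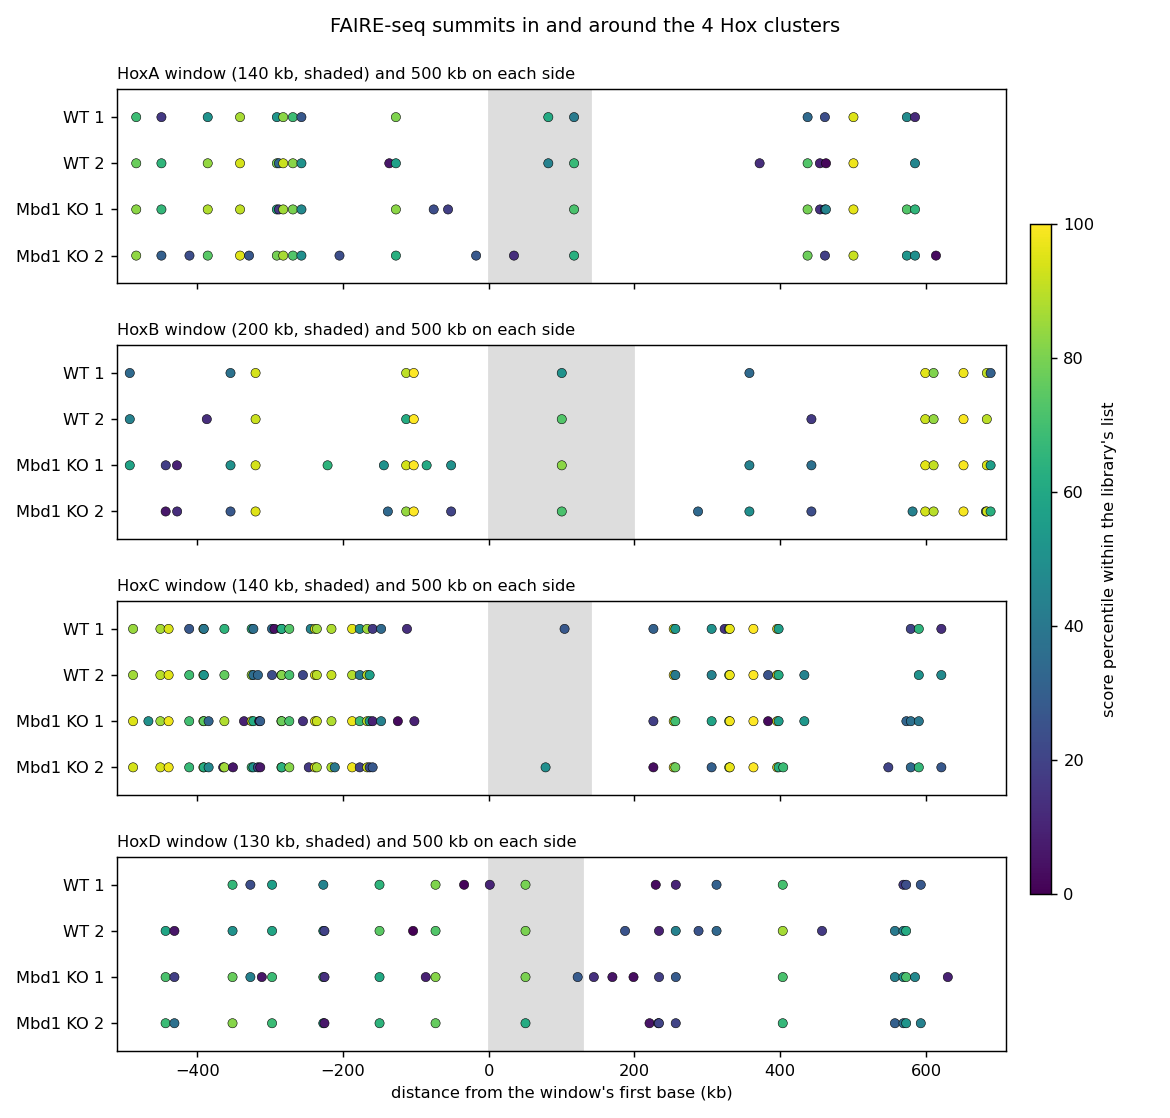
Summits of the 4 libraries (rows) in and around each Hox cluster, by distance in kb from the first base of the window; shading marks the window and colour the percentile of the summit's score within its library's list. Columns of 4 points, 1 per row, are regions called in all libraries, of which HoxA, HoxB and HoxD have 1 each inside the shading and HoxC none.

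HoxC showed the widest contrast with its surroundings. Its window held 1 summit in WT 1, 0 in WT 2, 0 in Mbd1 KO 1 and 1 in Mbd1 KO 2, while its flanks held 37, 34, 43 and 41. That is 0.357 ± 0.412 regions per 100 kb inside against 3.88 ± 0.403 outside (SD, n = 4; exact sign-flip permutation p = 0.13, adjusted p = 0.25 over the 4 clusters). Summits were most frequent on the low-coordinate side, the side of Hoxc13 in the GRCm38.p6 gene order, with 22 to 29 per library, against 12 to 14 on the other. The HoxB window, 200 kb long, held exactly 1 region in every library. Its flanks held 1.43 ± 0.435 regions per 100 kb. Per 100 kb, the HoxB window thus had 0.351 times the mean density of its flanks (exact sign-flip permutation p = 0.13, adjusted p = 0.25). HoxC and HoxB were thus lower than their flanks in all 4 libraries, and no cluster's test could pass 0.05 with so few libraries.

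HoxA and HoxD differed less from their flanks. The HoxA window held 2, 2, 1 and 2 regions in WT 1, WT 2, Mbd1 KO 1 and Mbd1 KO 2, or 1.25 ± 0.357 per 100 kb against 1.73 ± 0.236 outside (SD, n = 4; exact sign-flip permutation p = 0.25, adjusted p = 0.25). The HoxD window held 2, 1, 2 and 1, or 1.15 ± 0.444 against 1.80 ± 0.337 (exact sign-flip permutation p = 0.25, adjusted p = 0.25). In both clusters WT 1 was slightly denser inside than outside, at 1.43 and 1.54 regions per 100 kb in HoxA and HoxD against 1.4 in each of the flanks, and the other libraries were lower inside.

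**Figure D2:**
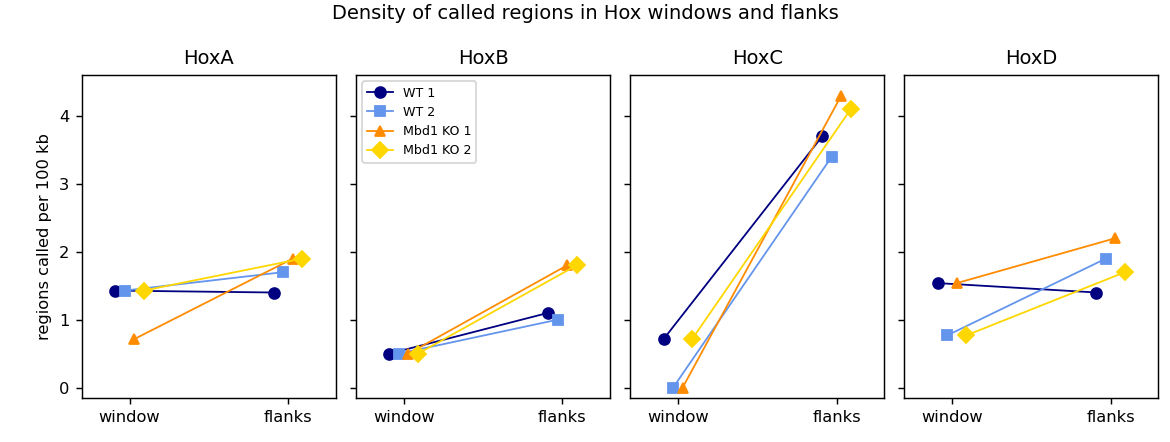
Regions called per 100 kb in each Hox window and in its flanks of 500 kb on each side; every line joins the values of 1 library. All 4 lines rise from window to flanks in HoxB and HoxC, and those of WT 1 in HoxA and HoxD do not.

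Windows with as few regions were common in the genome for HoxA, HoxC and HoxD, and less so for HoxB. The numbered chromosomes and X were divided into windows of each cluster's length, as a description of the lists with no test. Assembly gaps and gene-poor stretches between a chromosome's first and last region were not left out. Windows without any region made up 7.04% of those of 200 kb, 10.3% of those of 140 kb and 11.1% of those of 130 kb. Windows of 200 kb held a median of 6 regions, and 13.0% of 12871 held 1 or none, as HoxB did. Windows of 140 kb held a median of 4, and 31.0% of 18391 held 2 or fewer, as HoxC did, while 42.9% held no more than the 3 regions of HoxA. For the 130 kb of HoxD, 47.1% of 19806 windows held 3 or fewer. A window without any region called in all 4 libraries made up 37.7% of those of 140 kb, so the lack of one in HoxC is frequent at that length. HoxB was the sparsest of the clusters by this measure and HoxD the least so.

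**Figure D3:**
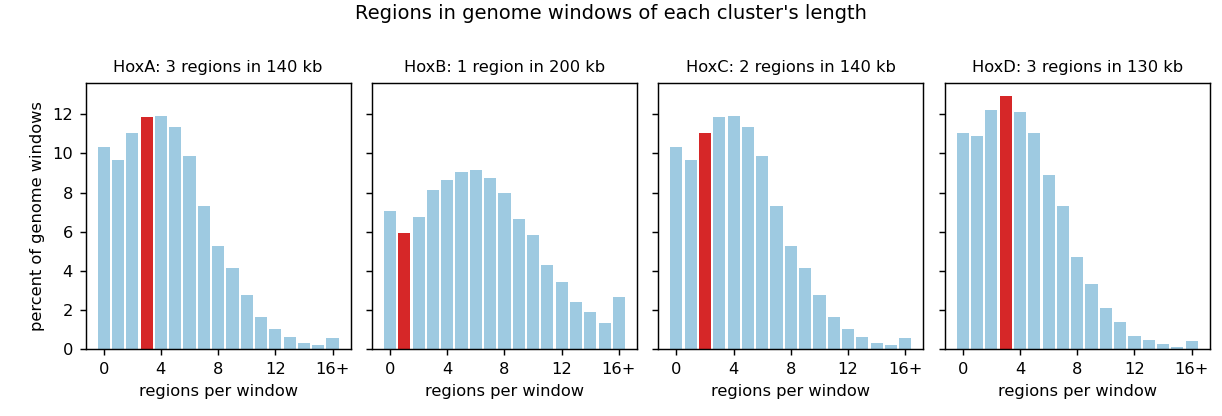
Percent of genome windows (y axis) that held a given number of regions (x axis, 16 or more pooled), for windows as long as each Hox cluster; the red bar is the number found in that cluster. The red bars lie below the medians of 4, 6, 4 and 4 regions, at 3 for HoxA, 1 for HoxB, 2 for HoxC and 3 for HoxD.

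The 3 shared regions had middling scores. Scores are ranked within a list, so a percentile of 60 means that about that percent of the library's summits scored as low or lower. In HoxA the shared region (chromosome 6, 52207088 to 52207122) lay 117.1 kb from the start of the window, toward the end that holds Hoxa13 in the GRCm38.p6 gene order. Its percentiles were 41.2 in WT 1, 67.5 in WT 2, 71.5 in Mbd1 KO 1 and 62.9 in Mbd1 KO 2. Mbd1 KO 2 fell between the WT libraries, so the titled groups overlapped. No library called anything in the 254.6 kb that followed this region on the high-coordinate side.

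The only region in HoxB (chromosome 11, 96140247 to 96140262) lay almost at the middle of the window, 100.2 kb from its start. Its percentiles were 50.6 in WT 1, 72.8 in WT 2, 82.7 in Mbd1 KO 1 and 71.3 in Mbd1 KO 2. The value of 82.7 was the highest of any Hox summit, and the groups again overlapped, since Mbd1 KO 2 ranked below WT 2. The nearest region of any library was 151.8 kb away on 1 side and 186.9 kb on the other.

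The shared HoxD region (chromosome 2, 74540463 to 74540486) lay 50.5 kb into the window. Its percentiles were 79.4 in WT 1, 79.8 in WT 2, 80.0 in Mbd1 KO 1 and 61.0 in Mbd1 KO 2, with scores of 23.5, 20.5, 20.3 and 13.7. Mbd1 KO 2 stood lower than the others, which lay between 79.4 and 80.0, so the groups overlapped here too. The titled groups thus overlapped at 3 of 3 shared Hox regions. Over the genome they did not overlap, in either direction, at 37.9% of shared regions. The groups of the genotype field also overlapped at 3 of 3 shared Hox regions, and over the genome did not at 29.7%.

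**Figure D4:**
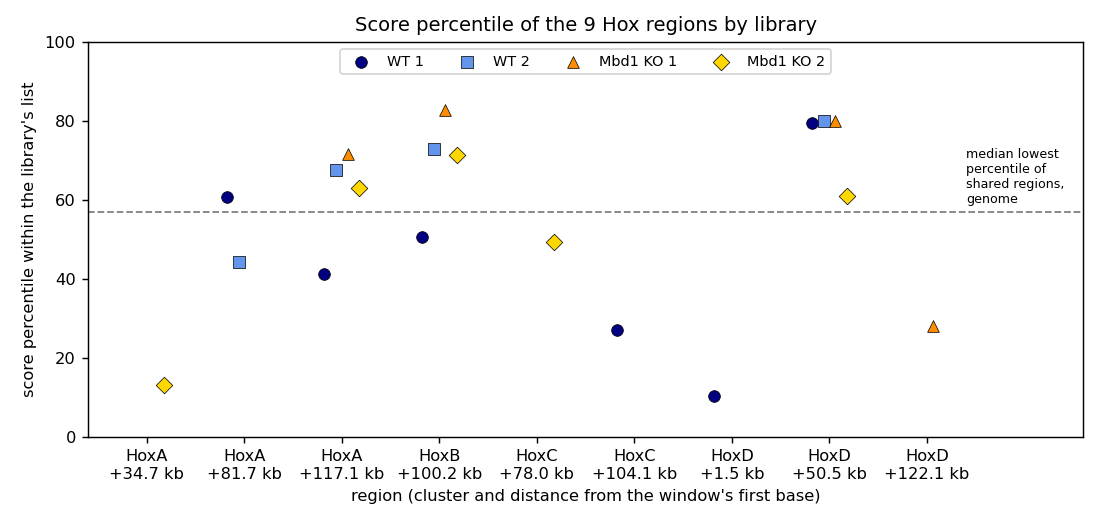
Score percentile (y axis) of the 9 Hox regions, named by cluster and distance from the window's first base (x axis), with 1 symbol for each library that called the region. The 3 regions with 4 symbols span 41.2 to 82.7, and 4 of the 5 regions with 1 symbol lie below 30; the dashed line is the genome's median lowest percentile for shared regions, 56.8.

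By their lowest percentile over the libraries, the HoxA, HoxB and HoxD regions stood at 41.2, 50.6 and 61.0. Of the 26592 regions called in all 4 libraries, 30.8%, 42.1% and 55.0% had a smaller value, and the median was 56.8. The 55 shared regions of the Hox flanks had a median of 66.6. WT 1 gave the lowest value in HoxA and HoxB, and Mbd1 KO 2 in HoxD. Summit positions of the libraries fell within 34 bp in HoxA, 15 bp in HoxB and 23 bp in HoxD. The median span was 40 bp over the 26527 shared regions with 1 summit per library.

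The HoxA window also held a region called in both WT libraries and in neither Mbd1 KO library (chromosome 6, 52171748 to 52171752). Its score was 14.4 in WT 1 and 8.45 in WT 2, at percentiles of 60.7 and 44.2, and the WT summits were 4 bp apart. The nearest summit of Mbd1 KO 1 and of Mbd1 KO 2 was 35.3 and 35.4 kb away, at the shared HoxA region. Its lower percentile exceeded that of 90.7% of the 808 regions of this pattern, whose median was 17.2, and 64 of them ranked higher. The pattern was seen in 1 of 9 Hox regions and in 0.975% of all regions, and the single region was not tested. It follows the titles only: by the genotype field WT 1 and WT 2 fall in different groups. With a score of at least 10 it was no longer a pair, since WT 2 lies below that value. The reverse pattern, a call in Mbd1 KO 1 and Mbd1 KO 2 but in no WT library, was seen in 0 of 9 Hox regions and in 4.07% of all regions. With the genotype field, 0 of 9 Hox regions were called in both WT libraries alone and 0 of 9 in both Mbd1 KO libraries alone, against 2.63% and 1.67% of all regions.

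The remaining 5 regions were each called in 1 library. In HoxA, Mbd1 KO 2 alone had a summit at 52124658 on chromosome 6 (percentile 13.1). In HoxC, Mbd1 KO 2 alone had one at 102818010 on chromosome 15 (49.4) and WT 1 alone one at 102844066 (27.1), 26.1 kb apart. In HoxD, WT 1 alone had a summit at 74491479 on chromosome 2 (10.3), 1.48 kb inside the edge of the window, and Mbd1 KO 1 alone one at 74612068 (28.1). Mbd1 KO 1, which has the longest list, thus had only 1 such region, and WT 2 none. Scores of these 5 ran from 4.36 to 10.5. Only the HoxC summit of Mbd1 KO 2 had a score above 10.

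Regions of all 4 libraries made up 3 of 9 (33.3%) in the windows and 55 of 137 (40.1%) in the flanks, against 32.1% of all regions. Regions of a single library made up 5 of 9 (55.6%) and 48 of 137 (35.0%), against 44.1%. With 9 regions the share in all 4 libraries is close to that of the genome and shows nothing particular to the clusters. By cluster it was 1 of 3 in HoxA, 1 of 1 in HoxB, 0 of 2 in HoxC and 1 of 3 in HoxD.

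Long stretches of each window were free of summits in every library, as must be the case with so few regions. The longest was 100.2 kb of the HoxB window (50.1% of it), from the window's start to the shared region. In HoxC it was 78.0 kb (55.7%), from the window's start to the summit of Mbd1 KO 2. In HoxD it was 71.6 kb (55.1%), between 74540486 and 74612068, and in HoxA 47.1 kb (33.6%), between 52124658 and 52171748. Beyond the shared HoxB region, the 99.7 kb to the window's end were empty too. These stretches were not set against gaps elsewhere in the genome. Single libraries showed longer stretches. The empty HoxC window of WT 2 was part of a stretch of 417.2 kb without a summit (102576633 to 102993830), and that of Mbd1 KO 1 part of one of 327.9 kb (102638016 to 102965956).

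No Hox summit lay above the 90th percentile of its list (0 of 19 summits, from 9 regions), where by construction about 10% of all summits lie. In the flanks 69 of 353 summits did (19.5%), with 15, 15, 20 and 19 of them in WT 1, WT 2, Mbd1 KO 1 and Mbd1 KO 2. A region called in several libraries counts once for each, so these summits stem from fewer regions. The flank summits above the 90th percentile came from HoxC (39 of 155), HoxB (22 of 57) and HoxA (8 of 69). The HoxD flanks had none either (0 of 72). The highest percentile inside the windows was 79.4, 79.8, 82.7 and 71.3 in the 4 libraries, and in the flanks it was at least 99.8 in each.

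The median strength of window and flank summits differed in opposite directions between libraries. The median percentile of Hox summits was 45.9 in WT 1, 70.1 in WT 2, 75.7 in Mbd1 KO 1 and 61.0 in Mbd1 KO 2, against 56.0, 61.2, 61.0 and 62.2 in the flanks. Windows were thus higher in WT 2 and Mbd1 KO 1 and lower in WT 1 and Mbd1 KO 2. The mean difference was 3.11 ± 11.0 points (SD, n = 4, exact sign-flip permutation p = 0.75, adjusted p = 0.75). With the weak summits below a score of 10 left out, percentiles were ranked anew within the shorter lists. Only 3, 3, 3 and 4 window summits then remained in WT 1, WT 2, Mbd1 KO 1 and Mbd1 KO 2. On that scale the windows were lower in all 4 libraries, by −25.5 points on average (exact sign-flip permutation p = 0.13). In the full lists without Mbd1 KO 1 the mean difference was −0.755, so its direction rests on that library.

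By title, the Mbd1 KO libraries had slightly fewer summits in the Hox windows and more in the flanks, as in their longer lists. The Mbd1 KO libraries averaged 4.50 ± 0.707 Hox summits and the WT libraries 5.00 ± 1.41 (SD, n = 2 each), a ratio of 0.90 (exact two-sided permutation p = 1.00, adjusted p = 1.00 over 5 comparisons). In the flanks they averaged 98.5 ± 4.95 and 78.0 ± 2.83, a ratio of 1.26 (exact permutation p = 0.33, the smallest that 2 libraries against 2 allow). By the genotype field the Hox averages were 5.00 ± 1.41 for Mbd1 KO and 4.50 ± 0.707 for WT, and the flank averages 89.0 ± 18.4 and 87.5 ± 10.6 (exact permutation p = 1.00 for both). With 2 libraries against 2, no difference of any size could have passed 0.05 in this test.

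As a share of its list, Hox summits made up 0.0157% in WT 1 (95% exact Clopper-Pearson interval 0.00577 to 0.0342%), 0.00857% in WT 2 (0.00234 to 0.0220%), 0.00709% in Mbd1 KO 1 (0.00193 to 0.0182%) and 0.0101% in Mbd1 KO 2 (0.00327 to 0.0235%). The intervals cover counting error only, and all 4 overlap. The share differed by −0.00357 percentage points between Mbd1 KO and WT (exact permutation p = 0.67, adjusted p = 0.83), and the log2 ratio of window to flank density by −0.47 (exact permutation p = 0.67, adjusted p = 0.83). By the genotype field these differences were 0.00209 and 0.12 (exact permutation p = 1.00 for both). Without WT 1, which has the most Hox summits, the share differed by 6.04e-06 and the density ratio by −0.14.

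The shared Hox regions ranked a median of 12.8 points higher in the Mbd1 KO libraries than in the WT libraries (exact permutation p = 0.67, adjusted p = 0.83). By region the mean percentiles were 67.2 for Mbd1 KO against 54.4 for WT in HoxA, 77.0 against 61.7 in HoxB and 70.5 against 79.6 in HoxD, so HoxD ran the other way. The median difference was −5.41 by the genotype field (exact permutation p = 1.00) and −0.28 without WT 1, whose ranks in HoxA and HoxB were low. It was 4.03 in lists of equal length and 1.18 at a score of at least 10, both with percentiles ranked anew. The value of 1.18 covers only 2 shared regions, those of HoxB and HoxD. The HoxA region scored 9.71 in WT 1 and was no longer shared at that filter. Without WT 2, in the full lists, the median difference was 25.9. The gap between window and flank median percentiles differed by 7.31 points between the titled groups (exact permutation p = 0.67, adjusted p = 0.83), by −1.58 with the genotype field, and by −2.20 without WT 1 and −0.62 without Mbd1 KO 1.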

How the data were processed

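FAIRE-seq libraries of dentate gyrus, 2 titled WT and 2 titled Mbd1 KO, were each deposited as a list of 1-base peak summits with a score. The deposited score has the form that MACS2 writes, −log10 of a p or q value. The sources used here do not tell which, nor thresholds, read filters, versions or an input control. All scores exceed 1.30. Per the submitters' processing notes, Bowtie, SAMtools and MACS2 were used with mm9. Scores served only as ranks within a list or as a filter. A summit list holds only values above a threshold, so no limit is given for a count of 0.

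Summits of all lists within 250 bp were joined, and a region was called in a library with a summit in it. Windows and flanks were compared per library by exact two-sided sign-flip permutation, and groups by exact permutation of the title labels, with Benjamini-Hochberg adjustment within each family. Alternatives were the genotype field, lists shortened to 38142 summits, a score of at least 10, joining distances of 100 and 1000 bp, flanks of 250 and 1000 kb, a replicate block and each library left out. Percentiles were ranked anew in the shortened lists and in those filtered by score. Members and lists were chosen with earlier results of these data known. All 9 members are described. The rule named the 3 strongest shared regions per cluster, regions of 1 titled pair, shared regions whose groups do not overlap (0 found) and the longest empty stretch. Regions of a single library were added after their values were seen. Joining and placing in windows were tried on simulated lists with well-separated regions, and the permutation tests on short fixed sets with known p-values. Computations used scipy 1.17.1, pandas 2.3.3 and numpy 2.4.6 under Python 3.11.15.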

Additional observations from a re-analysis of the deposited data

How the results depend on the processing

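Of 97 recomputed differences and ratios, 78 kept the sign of the reported value, 17 changed it and 2 were 0. Part of the 78 was fixed in advance, so the tally does not measure robustness. The joining distance does not enter summit counts, shares or median percentiles of summits. The replicate block leaves differences of group means and means over libraries as they were. The density of the windows was below that of the flanks in every setting run for it. Several of these settings could not have turned it. Leaving out a library, the replicate block and keeping the libraries whose labels agree only average library values that were all below 0. Joining at 100 bp left the mean log2 ratio at −1.51. No test here can pass 0.05 with 4 libraries. By the genotype field, the log2 ratio of Hox summits (Mbd1 KO over WT) turned from −0.15 to 0.15, the share difference to 0.00209 percentage points, the difference in the density ratio to 0.12, that of the percentile gap to −1.58 points and that of shared regions to −5.41, and regions of the WT pair fell to 0. At a score of at least 10 the log2 ratio was 0.22, the share difference 0.000315, the mean percentile gap between windows and flanks −25.5 points and the WT pair 0 regions. In lists of equal length that gap was −1.58, with percentiles ranked anew there as at the score filter. The gap was 11.5 with flanks of 250 kb, 10.7 without HoxC and 11.8 in the libraries whose labels agree, against 3.11 as reported. The cause was not tested. Leaving out 1 library, the log2 ratio of summits ran from −0.42 to 0.17 and the share difference from −0.00715 to 6.04e-06 (both above 0 without WT 1 only). The group difference of the percentile gap ran from −2.20 to 16.8, that of shared regions from −0.28 to 25.9, and the mean gap from −0.755 (without Mbd1 KO 1) to 7.49. Regions of the WT pair ran from 1 to 3 and of the Mbd1 KO pair from 0 to 2, since 1 library then has fewer conditions to meet. The difference in the share of regions in all 4 libraries, windows minus flanks, was −6.81 points and ran from −21.9 (score of at least 10) to 8.29 (without HoxC). It was −12.2 with flanks of 1000 kb and 1.13 with flanks of 250 kb. Without WT 2 it was −15.1, there for regions in all remaining libraries, which is a looser condition. Leaving out HoxC and keeping only libraries whose labels agree were chosen after seeing the data. With a replicate block the density ratio stayed at −1.51 (exact sign-flip permutation p = 0.50, the smallest 2 pairs allow), the log2 ratio of summits was −0.13 (−0.58 in pair 1, 0.32 in pair 2) and shared regions differed by 12.8 points (30.2 and −4.57). The numbers are not shown to pair the libraries: deviations of same-numbered libraries correlated at 0.013 over the 26592 shared regions.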
